A study of Mus musculus with 12 samples.

Results

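The genes described here code for the proteins of the cytosolic ribosome. They were taken by gene symbol from the deposited tables: every symbol made of Rpl or Rps, a number and at most a final a or x, together with Rplp0, Rplp1, Rplp2 and Rpsa. The rule gave 76 of 55421 genes, of which 43 belong to the large subunit, 30 to the small subunit and 3 to the stalk of the large subunit. All 76 reached a normalized count of at least 10 in at least 3 libraries and were tested. Ribosomal protein genes with other symbols (such as Rps3a1, Fau and Rack1) were not members and are given separately.

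RNA was sequenced from B16F10, a pigmented mouse melanoma line, in 4 groups of 3 libraries: Bub1KO cells given 8 Gy of radiation, vector control (VC) cells given 8 Gy, unirradiated Bub1KO cells and unirradiated VC cells. Bub1, a kinase of the mitotic checkpoint, had been disrupted with CRISPR-Cas9 in the Bub1KO cells. The study asked how Bub1 deficiency alters the response of melanoma cells to radiation. Neither the number of knockout clones nor the time from irradiation to harvest was stated in the sources used. Whether replicate libraries stem from separate cultures is not labelled, so p-values measure the spread between these libraries, which may be technical. Values are read counts divided by 1 size factor per library, called normalized counts below, and differences are in log2(value + 1).

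A ribosome holds a single copy of most of its proteins, and growing cells make these proteins in step with each other and with ribosomal RNA. Their mRNAs are abundant and short, and most begin with a run of pyrimidines, the terminal oligopyrimidine (TOP) motif, through which the kinase mTOR and the RNA-binding protein Larp1 set their translation and stability. Melanoma and other fast-growing cells spend much of their transcription and translation on ribosomes.

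The annotated first bases of 7 members are shown because the TOP run lies there; 5 of them carry a run, and Rps26 and Rps13 do not. They are from GENCODE M21 transcripts on GRCm38.p6, 5′ to 3′. Capitals mark the longest run of C and T that begins within the first 10 bases, where it has at least 5 bases.
Rpl36 (chr17:56613416-56613445, plus strand): CTTCCTgtcccggccgccatcggagagcat
Rplp1 (chr9:61914513-61914542, minus strand): gaTCTTTTCCTCagctgccgccaaggtgct
Rps21 (chr2:180257377-180257406, plus strand): CCCTCCTgcccaatagtgctgcggaggcac
Rpl37 (chr15:5116645-5116674, plus strand): CTCTTCCggtctctttggcctcgccggtag
Rpl32 (chr6:115808718-115808747, minus strand): CTTCCTTCTTCCTCggcgctgcctacgagg
Rps26 (chr10:128626718-128626747, minus strand): ttgggaatgtaacattttaatcttccgccg
Rps13 (chr7:116334166-116334195, minus strand): gtcggtgagtggcgtcacttcctgtgcggc
Such a run was present in 28 of 76 members (36.8%) and in 2636 of 11911 tested protein-coding genes (22.1%). A single annotated transcript stood for each gene, the longest where several ranked alike, and it need not be the main one in these cells. Annotated starts can also lie some bases from the starts used in cells, so a missing run says only that it is not in these letters. Rpl36, Rplp1 and Rps21 were lower and Rpl37 and Rpl32 higher in irradiated Bub1KO than in irradiated VC cells, and all 5 carry a run. Rps26 and Rps13, without a run in these letters, were lower as well.

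The libraries held 19380726 to 33087366 reads in genes, and the members took 4.48% to 5.58% of them. Bub1 itself had 886, 989 and 1119.8 normalized counts in irradiated Bub1KO against 1484, 1461 and 1507 in irradiated VC libraries, and 1834, 1565 and 1588 in unirradiated Bub1KO against 2752, 3185 and 2859 in unirradiated VC libraries. Bub1 RNA was thus present in Bub1KO cells at a reduced level, with no overlap between the lines under either treatment. The position of the disruption was not stated in the sources used. All 7 melanocyte lineage genes were present, with summed values of 555547 to 578932 in irradiated Bub1KO, 430616 to 445913 in irradiated VC, 542890 to 552089 in unirradiated Bub1KO and 386911 to 404327 in unirradiated VC libraries. The 5 fibroblast genes summed to 228 to 256, 328 to 337, 175 to 199.9 and 179 to 239 in the same order of groups, with Dcn and Lum at 6.19 or less in every library. The 5 leukocyte genes summed to 270.0 to 287, 169 to 196, 28.8 to 31.5 and 29.0 to 32.3, through Cd68 and Lyz2, while Cd3e was at 0 and Ptprc at 1.29 or less throughout. The part of these markers in the results was not tested.

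The first unirradiated Bub1KO library stood apart. For each library, the median log2 deviation from the mean of the 12 libraries was taken for GC-rich genes (transcript GC content at or above the 75th percentile) and for GC-poor genes (at or below the 25th). GC-rich minus GC-poor was -0.719 in that library, against 0.0356 and 0.0841 in the other unirradiated Bub1KO libraries and -0.373 to -0.135 in unirradiated VC libraries. It was 0.0764 to 0.287 in irradiated Bub1KO and 0.157 to 0.334 in irradiated VC libraries, so the difference separated the treatments in VC cells, while in Bub1KO cells 1 irradiated and 1 unirradiated library overlapped. Its part in the results was not tested beyond the GC-corrected fits given below. Members have a median GC content of 51.7%, against 50.0% for all tested genes, and a median transcript length of 816 bases, against 2661. Values without that library stand beside the results it bears on.

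Levels per length differed widely between members. Rpl32 (eL32), a large subunit protein, had the highest mean per kilobase of transcript, 120579 normalized counts, followed by Rpl41, one of the smallest proteins known, with 56289 and Rpl4 with 44254. At the low end stood Rpl24 with 31.6, Rps10 with 136 and Rpl13a with 980.1 per kilobase. These 3 share 71.5%, 53.6% and 59.3% of their exonic bases with another annotated gene on the same strand, and pseudogenes named after Rps10 together had 176% of its own value. How reads of shared bases were counted was not stated in the sources used, so the levels of these 3 are uncertain.

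Rpl36 (eL36), a protein on the surface of the large subunit, had the largest SD between libraries of a group of any member, by the median over the 4 groups. The gene lies at chr17:56613416-56614243 on the plus strand of GRCm38, and its transcript of 383 bases has the highest GC content of all members, 60.8%. It had 2804, 2735 and 2451 normalized counts in irradiated Bub1KO cells and 9319, 17939 and 7789 in irradiated VC cells. It had 719, 4881 and 5228 in unirradiated Bub1KO cells and 3959, 1556 and 1252 in unirradiated VC cells. The irradiated groups were apart from each other, and the unirradiated groups overlapped: both the lowest and the 2 highest unirradiated values came from Bub1KO. In unirradiated Bub1KO cells the highest library had 7.28 times the lowest, and 1.07 times without the first library. In unirradiated VC cells it had 3.16 times the lowest, and 1.24 times without the first library.

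The SD of Rpl36 over the 3 libraries of a group was 0.103 on the log2 scale in irradiated Bub1KO, 0.633 in irradiated VC, 1.62 in unirradiated Bub1KO and 0.882 in unirradiated VC cells. From the largest SD down, its rank among the 76 members was 31 in irradiated Bub1KO, 2 in irradiated VC, and 1 in both unirradiated groups. The median SD of the members was 0.0949, 0.0957, 0.261 and 0.162 in the same groups, against 0.112, 0.0988, 0.184 and 0.131 over all 14721 tested genes. The median of the members was below that of all genes in irradiated Bub1KO cells, and above it in both unirradiated groups. In irradiated VC cells it was below by less than the settings moved it: 0.0973 against 0.0955 with the trend of transcript length removed, and 0.0998 for both with libraries scaled by total reads. An SD above 0.5 was found for 22 members (28.9%) in unirradiated Bub1KO cells, against 12.97% of all tested genes. It was found for 0 members in irradiated Bub1KO cells, 3 (3.95%) in irradiated VC cells and 1 (1.32%) in unirradiated VC cells, against 5.53%, 5.15% and 8.29% of all tested genes. With the trend of GC content removed from each library, the SD of Rpl36 was 0.0295, 0.494, 1.15 and 0.783 in the 4 groups.

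The SDs above 0.5 in unirradiated Bub1KO cells rested on the first library, by values taken after the data were seen. Over the other 2 libraries the SD of Rpl36 was 0.0700, rank 64 of the 76 members, and an SD above 0.5 was found for 0 members, against 6.17% of all tested genes. The median SD was then 0.153 for the members and 0.0838 for all tested genes. Single libraries set the SD of Rpl36 in the VC groups too: it was 0.221 (rank 23) in unirradiated VC cells without the first library and 0.183 (rank 5) in irradiated VC cells without the second. In irradiated Bub1KO cells without the second library the median SD of the members was 0.0522, against 0.104 for all tested genes, and without the last it was 0.105 against 0.0791. In unirradiated VC cells without the last library it was 0.1005 against 0.1006.

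**Figure D1:**
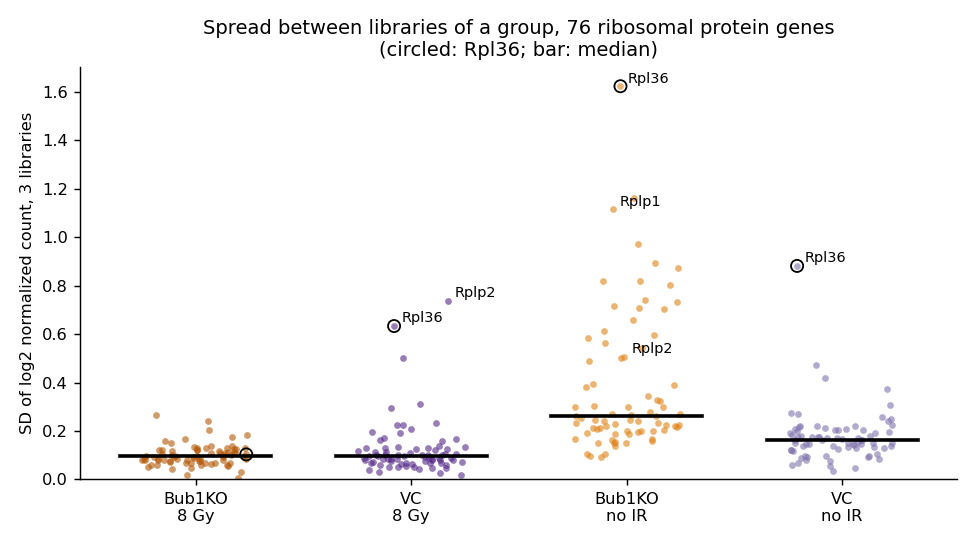
Each point is the SD of the log2 normalized count of 1 of the 76 members over the 3 libraries of a group, and the bar is the median. Rpl36, circled, is at 1.62 in unirradiated Bub1KO and 0.882 in unirradiated VC cells, and lies among the other members in irradiated Bub1KO cells.

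After Rpl36, the largest median SD over the 4 groups belonged to Rplp2 and Rplp1, the acidic stalk proteins that recruit translation factors to the ribosome. For Rplp1 the values were 14954, 14824 and 12604 in irradiated Bub1KO, 35573, 47094 and 30708 in irradiated VC, 5816, 21526 and 22879.8 in unirradiated Bub1KO and 18594, 11488 and 11059 in unirradiated VC cells. The first unirradiated Bub1KO library was the lowest of the 12. For Rplp2 the values were 3041, 3548 and 3083 in irradiated Bub1KO and 6622, 14824 and 5747 in irradiated VC cells, where the second VC library stood above the other 2 and gave the largest SD of any member in that group, 0.737. The smallest median SD belonged to Rps18, Rpl6 and Rplp0, of which Rplp0 anchors the stalk. In unirradiated Bub1KO cells, however, their SDs were 0.242, 0.322 and 0.503, so the median does not mean a small spread in every group. For Rps18 the values were 16065, 17488 and 16823 in irradiated Bub1KO and 15974, 15089 and 15490.2 in irradiated VC cells.

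In the first unirradiated Bub1KO library 51 of 76 members lay below the mean of their group, with a median deviation of -0.24 (log2), and 25 lay above it. Chosen after the values were seen as the members farthest from the mean after Rpl36 and on the other side, Rps29 had 1235, 4372 and 5524 in the 3 unirradiated Bub1KO libraries, lowest in the first, and Rps24 had 36377, 25365 and 29865, highest in the first. Across the 76 members the deviation of that library had a Pearson correlation of -0.56 with transcript GC content, and over all tested genes it was -0.56 too. The points share 1 library, and deviations within a group of 3 sum to 0, so the correlations of 0.54 and 0.57 in the other 2 libraries are not separate measurements.

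**Figure D2:**
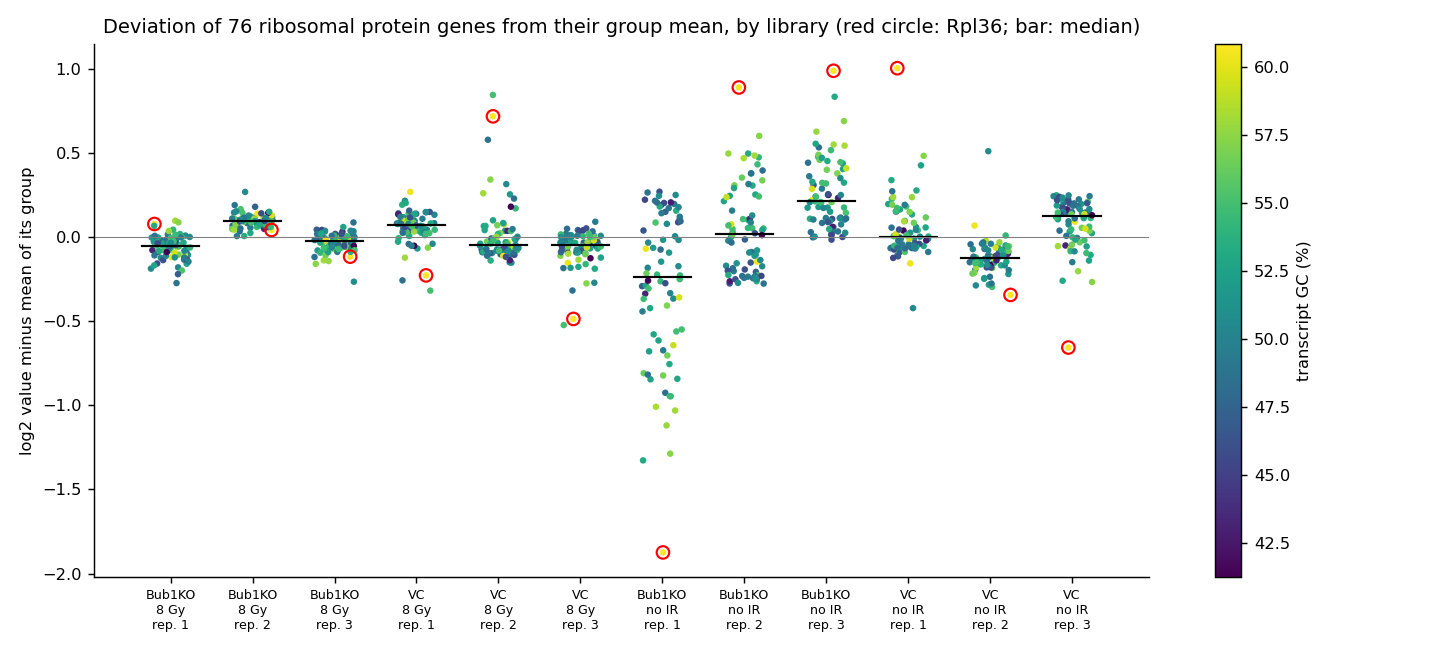
Each point is 1 of the 76 members in 1 library, as log2 value minus the mean of its group, coloured by the GC content of its transcript; the bar is the median and the red circle marks Rpl36. The first unirradiated Bub1KO library reaches down to -1.87 for Rpl36, while in the second irradiated Bub1KO library all 76 members lie above 0.

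Over the 12 libraries, 9 of the 75 other members had a Pearson correlation above 0.8 with Rpl36 in log2 values, among them Rplp1 (0.989), Rps26 (0.972), Rps21 (0.956), Rplp2 (0.893), Rps12 (0.862), Rpl10a (0.853), Rps20 (0.814) and Rpl8 (0.809). They were named after their values were seen. The same 9 had correlations of 0.683 to 0.985 in the deviations from group means, where differences between groups are removed. The correlation was positive for 34 members and negative for 41, with a median of -0.083, and the most negative were Rps24 at -0.837 and Rpl22 at -0.814. The 9 had a median GC content of 54.2%, with a range of 41.3% to 58.1%, and the other members a median of 50.7%. Without the first unirradiated Bub1KO library, left out after the values were seen, 10 members had a correlation above 0.8 over the other 11 libraries, 8 of the 9 among them, and the 9 had 0.748 (Rps20) to 0.988 (Rplp1). The median over the members was then -0.417, with 24 positive and 51 negative. These are descriptions over the libraries, whose values share 1 normalization, and the part of GC content in them was not tested.

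Among irradiated cells, some members were lower and others higher in Bub1KO than in VC. At a limma adjusted p under 0.05 on the 6 irradiated libraries, 14 of 76 (18.4%) were lower and 21 (27.6%) higher in Bub1KO cells. Over all 14721 tested genes 16.4% were lower and 14.3% higher, 30.7% in all. The share of members lower was thus near that of all genes, and the share higher stood above it. The median change of the members was 0.11 (log2), against -0.01 over all tested genes. It was 0.013 with the trend of transcript length removed, against 0.000345 over all tested genes, and 0.061 without the second irradiated Bub1KO library. The 3 libraries of Bub1KO lay wholly above those of VC for 25 members and wholly below for 15, where 22.1% and 22.6% of all tested genes did so. In the large subunit 17 of 43 were higher and 4 lower, in the small subunit 4 of 30 were higher and 8 lower, and of the 3 stalk genes 2 were lower. Lower RNA per cell and a lower number of cells of some state cannot be told apart in bulk RNA.

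The 4 largest changes in either direction were all lower in Bub1KO cells. Rpl36, at the values above, averaged 2663 ± 187 in irradiated Bub1KO and 11682 ± 5472 in irradiated VC cells (SD, n = 3 each), a log2 change of -2.04 ± 0.21 (SE), limma adjusted p = 1.95e-05. Rplp1, one of the 2 acidic stalk proteins, averaged 14127 ± 1321 in Bub1KO and 37792 ± 8415 in VC cells (SD, n = 3 each) and changed by -1.40 ± 0.12 (SE), limma adjusted p = 4.52e-06. Its partner Rplp2, at the values above, changed by -1.36 ± 0.24 (SE), limma adjusted p = 0.00111. Rplp0, which anchors both, had 29028, 32232 and 30210.3 in irradiated Bub1KO against 33090.1, 34467 and 31422 in irradiated VC cells, a change of -0.11 ± 0.06 (SE), limma adjusted p = 0.178, with a 95% interval of -0.25 to 0.02. For Rplp1 and Rplp2 every Bub1KO library was below every VC library, and for Rplp0 the groups overlapped. In alternative fits (limma, edgeR or DESeq2) the adjusted p of Rplp0 reached 0.0341.

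Small subunit genes made up most of the rest of those lower. Rps26 (eS26), which lies at the channel where mRNA leaves the ribosome, had 6759, 7279.7 and 6194 in irradiated Bub1KO against 13047, 15730.3 and 11816 in irradiated VC cells. Its log2 change was -0.997 ± 0.09 (SE), limma adjusted p = 7.08e-06. Rps21 (eS21) had 7099, 7593 and 6684 in irradiated Bub1KO against 11339, 11916 and 10551 in irradiated VC cells, a change of -0.66 ± 0.06 (SE), limma adjusted p = 1.14e-05. Rps13 (uS15) had 4068, 4278 and 3902 against 7029, 8785 and 6490.2, a change of -0.85 ± 0.09 (SE), limma adjusted p = 2.38e-05. In all 3 genes every Bub1KO library was below every VC library. The other 8 genes that were lower had log2 changes of -0.47 (Rpl10a) to -0.29 (Rps12).

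The genes that were higher in irradiated Bub1KO cells belonged mostly to the large subunit. Rpl3 (uL3), which reaches towards the peptidyl transferase centre, had 19219, 21531 and 19663 in irradiated Bub1KO against 17394, 15283 and 15523 in irradiated VC cells, a log2 change of 0.33 ± 0.07 (SE), limma adjusted p = 0.00248. Rpl37 (eL37) had 13635, 15542 and 14475 against 12439.8, 11529.5 and 10893, a change of 0.32 ± 0.07 (SE), limma adjusted p = 0.00252. Rpl22 (eL22), an RNA-binding protein that cells can replace with its paralogue, had 13239.9, 14312 and 13466 against 11815, 10497 and 11227, a change of 0.29 ± 0.06 (SE), limma adjusted p = 0.00271. Each of these genes was higher in all 3 Bub1KO libraries than in any VC library. The 21 genes that were higher had log2 changes of 0.18 to 0.45. The largest was that of Rps10, which shares annotated exonic bases with another gene, so its level is uncertain, as said above.

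**Figure D3:**
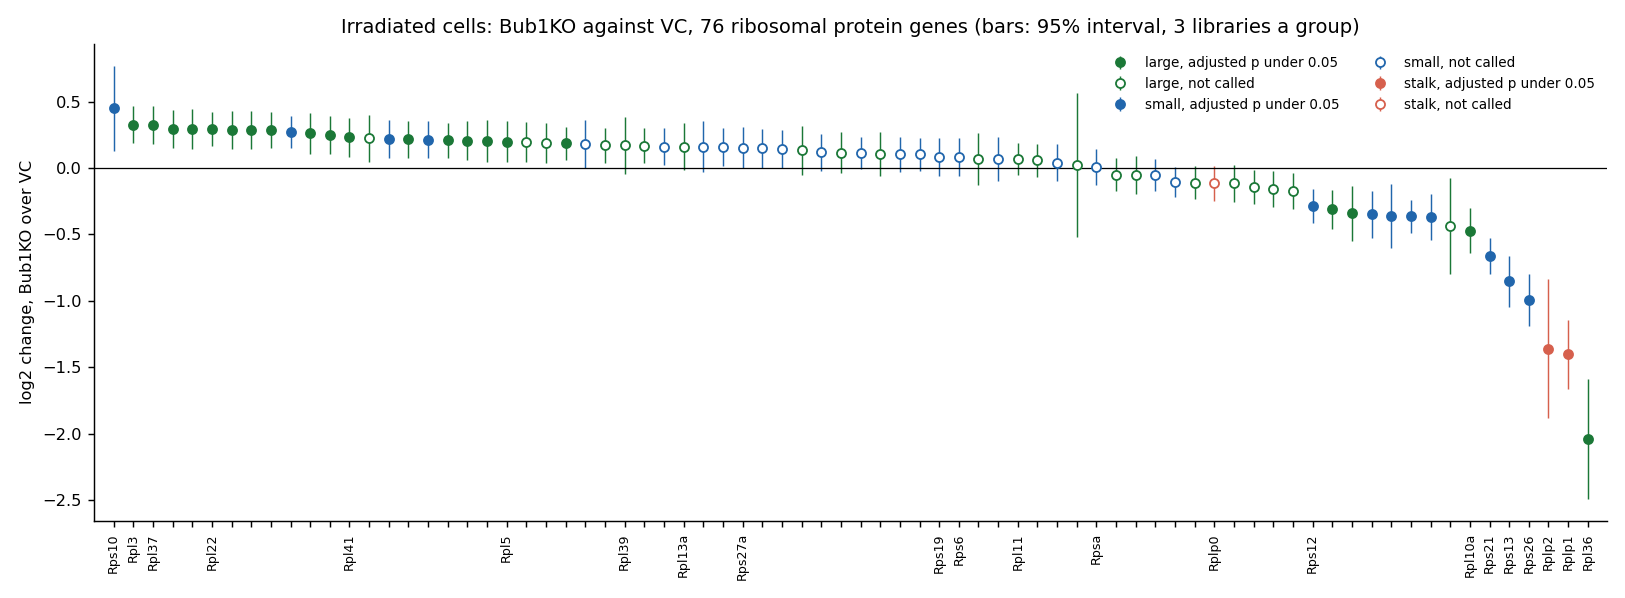
Log2 change of each of the 76 members in irradiated Bub1KO over irradiated VC cells, sorted, with 95% intervals from limma; filled points have an adjusted p under 0.05, colours give the subunit, and genes described in the text are named on the axis. The lower end reaches -2.04 for Rpl36 and the upper end 0.45 for Rps10.

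Of the members with roles outside the ribosome, Rpl5 and Rpl11 both bind the ubiquitin ligase Mdm2 when free of ribosomes. Rpl5 had 5174, 5606 and 5070.4 in irradiated Bub1KO against 5043, 4177 and 4616 in irradiated VC cells, a change of 0.20 ± 0.07 (SE), limma adjusted p = 0.0471, and Rpl11 changed by 0.06 ± 0.06 (SE), limma adjusted p = 0.409. The log2 change was 0.08 for Rps6, the substrate of S6 kinases, 0.08 for Rps19, 0.01 for Rpsa, the laminin receptor precursor, 0.16 for Rpl13a, 0.15 for Rps27a, made as a fusion with ubiquitin, and 0.17 for Rpl39. None of these 6 passed, with limma adjusted p from 0.121 to 0.92. Some alternative fits (limma, edgeR or DESeq2) called 4 of them, with adjusted p down to 0.0234 for Rps19, 0.0379 for Rpl13a, 0.047 for Rps27a and 0.0131 for Rpl39. Rps6 and Rpsa passed in none. Rpl41 had a change of 0.23 ± 0.07 (SE), limma adjusted p = 0.0199. Other settings ended both the call of Rpl5 and that of Rpl41. For Rpl5 the adjusted p was 0.0501 in edgeR, 0.0578 with no filter, 0.0607 with total-read scaling, 0.062 with a replicate block and 0.0643 with length correction, and limma did not call it in 4 of the 6 fits that left out 1 library (0.0755 to 0.185). For Rpl41 the limma adjusted p was 0.27 with length correction, at a change of 0.11, 0.103 without the second irradiated Bub1KO library and 0.0841 without the last irradiated VC library.

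The counts in irradiated cells depended on the fit. In the second irradiated Bub1KO library all 76 members lay above the mean of their group, with a median deviation of 0.0966 (log2). The share of all tested genes that passed in either direction, 30.7% in the main fit, moved as well and stands in brackets below. When limma took its spread from all 12 libraries, 6 members were lower and 1 higher (14.3%). The 12 include the first unirradiated Bub1KO library. With the trend of transcript length removed, 22 were lower and 9 higher (30.2%), and with that of GC content removed 16 were lower and 22 higher (34%). Without the second irradiated Bub1KO library 15 were lower and 9 higher (20.7%), and without the second irradiated VC library 14 were lower and 11 higher (22.8%). Rpl36 passed in each of these fits, with an adjusted p of 0.0409 or less. With the spread from all 12 libraries the limma adjusted p was 0.112 for Rps21, 0.431 for Rpl37, 0.086 for Rpl22, 0.262 for Rpl5 and 0.539 for Rpl41. In the authors' deposited table for irradiated cells, 7 members were lower and 2 higher in Bub1KO at an adjusted p under 0.05. The share of all genes that passed there was not taken, so these counts cannot be read as many or few.

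In VC cells, irradiation was followed by lower levels of many members and higher levels of a few. Of 76, 8 were higher and 34 lower in irradiated than in unirradiated VC cells at a limma adjusted p under 0.05, fitted on all 12 libraries. Over all tested genes 27.6% were higher and 25.8% lower, 53.4% in all, so the share of members lower, 44.7%, stood above that of all genes and the share higher, 10.5%, below it. The median change of the members was -0.22 (log2) and that of all tested genes 0.02. The 3 irradiated libraries lay wholly below the unirradiated ones for 38 members and wholly above for 9, against 31.8% and 33.6% of all tested genes. Leaving out the first or second irradiated or the second or last unirradiated VC library gave 5 higher instead of 8. In those fits 45.7% to 48.2% of all tested genes passed in either direction. With the trend of GC content removed 9 were higher and 41 lower, and 57.8% of all tested genes passed in either direction. The median change of the members was then -0.27. With total-read scaling 9 were higher and 24 lower (52.7% of all tested genes), and with only the 6 VC libraries 12 and 40 (59.4%).

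The genes that rose with irradiation in VC cells included Rpl36, Rplp1, Rplp2, Rps26, Rps21, Rps13 and Rpl10a, and each of these was also lower in irradiated Bub1KO than in irradiated VC cells. The irradiated VC libraries enter both comparisons, so the overlap is not a separate result. Rpl36 had a log2 change of 2.47 ± 0.61 (SE), limma adjusted p = 0.004, with all 3 irradiated libraries above the unirradiated ones. Its change was 1.91 with the GC trend removed, limma adjusted p = 0.0017. Rplp2 had 6622, 14824 and 5747 in irradiated against 3559, 2555 and 3405 in unirradiated VC cells, a change of 1.40 ± 0.30 (SE), limma adjusted p = 0.00143. Rps13 had 7029, 8785 and 6490.2 in irradiated against 4933, 3999 and 5392 in unirradiated VC cells, a change of 0.64 ± 0.12 (SE), limma adjusted p = 0.00071. Rps26 changed by 1.14 ± 0.25 (SE), limma adjusted p = 0.00197, and Rplp1 by 1.48 ± 0.39 (SE), limma adjusted p = 0.00581.

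The 34 genes that fell in VC cells had log2 changes of -0.78 to -0.25. Rpl10 (uL16), which joins the large subunit late in its assembly, had 18367, 16807 and 17009 in irradiated against 22959, 22789 and 26346 in unirradiated VC cells, a change of -0.46 ± 0.09 (SE), limma adjusted p = 0.000477. Rpl22 had 11815, 10497 and 11227 against 15451, 15242 and 18861, a change of -0.56 ± 0.11 (SE), limma adjusted p = 0.000654. Rps10 had 107, 81.7 and 79.4 against 137, 159.9 and 163, a change of -0.78 ± 0.15 (SE), limma adjusted p = 0.000651. For these 3 genes every irradiated library was below every unirradiated one. Rpl5 changed by -0.51 ± 0.11 (SE), limma adjusted p = 0.00194, Rpsa by -0.47 ± 0.09 (SE), limma adjusted p = 0.000714, and Rps27a by -0.53 ± 0.12 (SE), limma adjusted p = 0.00229. Rps6 changed by -0.31 ± 0.12 (SE), limma adjusted p = 0.0387, but limma did not call it in any of the 6 fits that left out 1 VC library (adjusted p 0.0601 to 0.124), with no filter (0.0643) or with total-read scaling (0.122). The changes of Rpl11, Rps19, Rpl13a, Rpl39, Rpl41 and Rplp0 were between -0.26 and 0.10 and did not pass. Of these, Rpl11, Rpl13a and Rps19 passed in some alternative fits (limma, edgeR or DESeq2), with adjusted p down to 0.0297, 0.0318 and 4.74e-05. The change of Rps19 ranged from -0.58 to -0.0064 over them. Rpl39, Rpl41 and Rplp0 passed in none.

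In Bub1KO cells, irradiation was followed by lower levels of 21 members and by a higher level of none at an adjusted p under 0.05 in limma. Of the members 27.6% were lower, near the 23.9% of all tested genes, and 0% higher, against 25.4%. Over all tested genes 49.4% passed in either direction. The median change was -0.11 for the members and 0.03 for all tested genes. The median of the members was -0.0028 without the last unirradiated Bub1KO library, -0.23 without the first, -0.065 without the first irradiated one and -0.032 with total-read scaling. At an unadjusted p under 0.05 the number of members that differed was 25 of 76, against 8151 of the 14721 tested genes. By edgeR's quasi-likelihood test 20 members were lower and 0 higher, and by DESeq2 22 were lower and 0 higher. These methods called 49.9% and 48.5% of all tested genes in either direction. The irradiated libraries lay wholly below the unirradiated ones for 17 of 76 members and wholly above for 0. Both shares were below those of all tested genes, 25.8% and 29.1%. With libraries scaled by their total reads instead of the authors' size factors, 7 members were lower and 1 higher. The median change of all tested genes was then 0.11, and 49.2% of them passed in either direction.

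Rpsa had 35497, 38907 and 34801 in irradiated against 49944, 47416 and 54636 in unirradiated Bub1KO cells, a log2 change of -0.48 ± 0.09 (SE), limma adjusted p = 0.000669. Rps25 had 22337, 25872 and 24848 against 40568, 28905 and 34299, a change of -0.50 ± 0.11 (SE), limma adjusted p = 0.00254. Rpl14 (eL14) had 9286, 10374 and 9144 against 11806, 11915 and 14205, a change of -0.39 ± 0.09 (SE), limma adjusted p = 0.0029. In these 3 genes the irradiated libraries were all below the unirradiated ones. Of the genes named for roles of their own, Rpl5 changed by -0.38 ± 0.11 (SE), limma adjusted p = 0.0141, with 0.0699 after GC correction, and Rps27a by -0.43 ± 0.12 (SE), limma adjusted p = 0.00888. The estimates of Rpl11, Rps6, Rplp0, Rplp1, Rplp2, Rpl13a, Rps19, Rpl39 and Rpl41 did not pass. In alternative fits (limma, edgeR or DESeq2) adjusted p reached 0.00157 for Rpl11, 0.0166 for Rps6, 0.0157 for Rplp0, 0.00779 for Rplp1 and 0.0446 for Rps19. Rplp2, Rpl13a, Rpl39 and Rpl41 passed in none. Rpl36 changed by 0.01 ± 0.61 (SE), limma adjusted p = 0.989, and its 95% interval, -1.31 to 1.33, spans changes in both directions.

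Without the first unirradiated Bub1KO library more members were lower: 34 were lower and 0 higher. Of all tested genes 51.4% were called in that fit, in both directions together. Of the 34 members, 14 were among the 21 found with all libraries. Rpl36 then changed by -0.93 ± 0.36 (SE), limma adjusted p = 0.0433. Of the stalk genes, Rplp0 changed by -0.22 ± 0.07 (SE), limma adjusted p = 0.0157, and Rplp1 by -0.66 ± 0.19 (SE), limma adjusted p = 0.00779. Leaving out the last unirradiated Bub1KO library instead gave 8 lower and 3 higher, and leaving out the first or last irradiated one gave 7 and 8 lower. In these fits 47.2%, 42.2% and 45.5% of all tested genes passed in either direction.

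**Figure D4:**
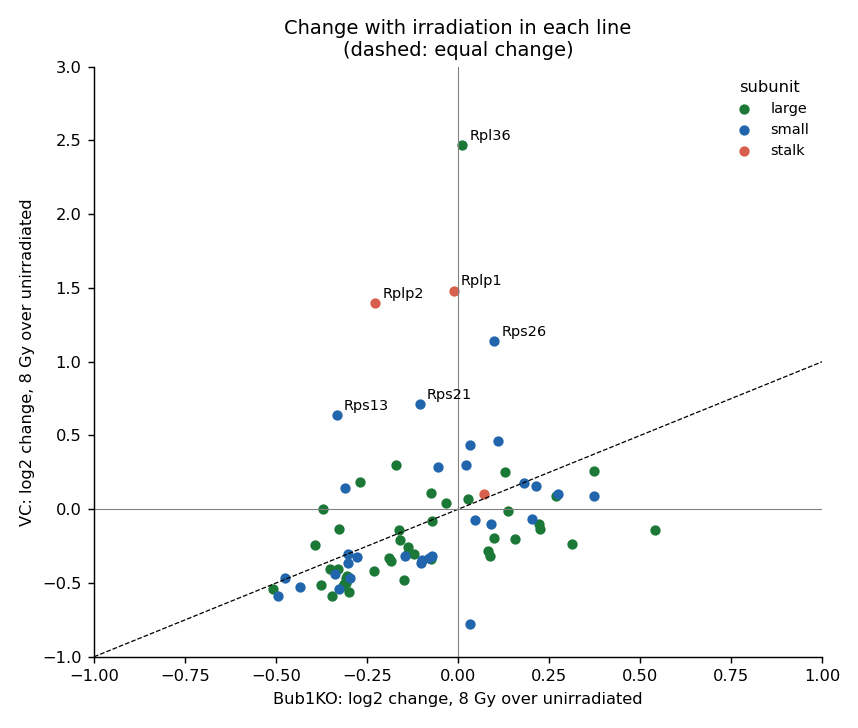
Log2 change with irradiation of each of the 76 members in Bub1KO cells (horizontal) and in VC cells (vertical), coloured by subunit, with equal changes on the dashed line. Rpl36, Rplp1, Rplp2 and Rps26 lie between -0.23 and 0.10 for Bub1KO cells and between 1.14 and 2.47 for VC cells.

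The difference between Bub1KO and VC cells in the change with irradiation was tested as an interaction over all 12 libraries. It passed for 1 of 76 members, Rps13, against 0.55% of all tested genes (0.414% lower and 0.136% higher). Rps13 had 4068, 4278 and 3902 in irradiated and 4915, 4756 and 5817 in unirradiated Bub1KO cells, and 7029, 8785 and 6490.2 in irradiated and 4933, 3999 and 5392 in unirradiated VC cells. It fell with irradiation in Bub1KO cells, at -0.33 ± 0.12 (SE), limma adjusted p = 0.0384, and rose in VC cells, as given above. The interaction was -0.97 ± 0.18 (SE), limma adjusted p = 0.024, and over its alternatives the adjusted p ranged from 7.89e-05 to 0.0783. It did not pass in 7 of the 12 fits that left out 1 library. For Rpl36 the interaction was -2.45 ± 0.87 (SE), limma adjusted p = 0.258, for Rplp2 -1.62 ± 0.42 (SE), limma adjusted p = 0.123, and for Rplp1 -1.49 ± 0.55 (SE), limma adjusted p = 0.281.

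Without the first unirradiated Bub1KO library, where 9.83% of all tested genes passed in both directions together, the interaction passed for 18 members, 17 lower and 1 higher. Among them were all 3 stalk genes. The interaction of Rpl36 was then -3.39 ± 0.49 (SE), limma adjusted p = 0.000625. That of Rplp1 was -2.14 ± 0.25 (SE), limma adjusted p = 0.000121, and that of Rps26 -1.45 ± 0.18 (SE), limma adjusted p = 0.00016. Rps10 was the gene with a higher value, 0.78 ± 0.22 (SE), limma adjusted p = 0.036. Rps13 passed with and without that library.

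**Figure D5:**
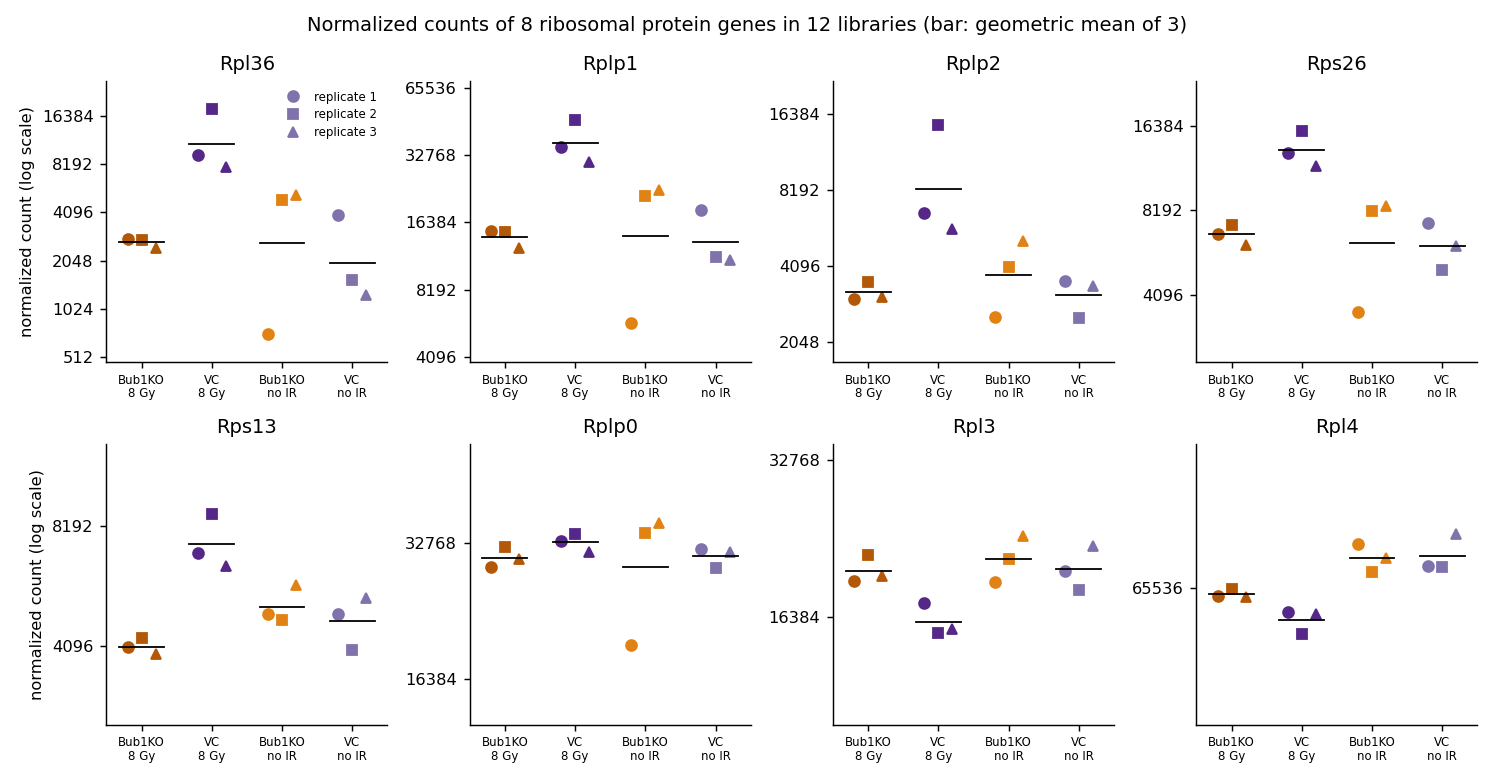
Normalized counts of 8 members in each library on a log scale, with a panel per gene, symbols for the replicate number and a bar at the geometric mean of a group. Rpl36, Rplp1, Rplp2, Rps26 and Rps13 have their highest group mean in irradiated VC cells, Rpl3 and Rpl4 their lowest, and the first unirradiated Bub1KO library is the lowest of all for Rpl36, Rplp1 and Rps26.

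Without irradiation no member differed between Bub1KO and VC cells at an adjusted p under 0.05 in limma, where 2.31% of all tested genes were higher and 1.71% lower, 4.01% in all. At an unadjusted p under 0.05 there was 1 member, against 2817 of the 14721 tested genes. Both edgeR and DESeq2 called 0 members, where they called 4.36% and 5.79% of all tested genes. The members divided evenly, with 38 higher and 38 lower estimates in Bub1KO, a median change of 0.001 (log2) and a range of -0.36 to 0.42, against a median of -0.01 over all tested genes. The groups did not overlap for 0 members in either direction, against 12.7% higher and 12.9% lower of all tested genes. Rpl36 had the highest estimate, 0.42 ± 0.71 (SE), limma adjusted p = 0.808, with a 95% interval of -1.18 to 2.02. The interval spans changes in both directions.

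Leaving out the first Bub1KO library gave 13 members higher and 0 lower in unirradiated Bub1KO cells, with 18.6% of all tested genes called in both directions together. These were Rpl23a, Rpl27, Rpl29, Rpl36 and Rpl41 of the large subunit, Rps12, Rps15, Rps21, Rps26, Rps28 and Rps29 of the small subunit, and Rplp1 and Rplp2. Rpl36 changed by 1.35 ± 0.35 (SE), limma adjusted p = 0.021, Rplp1 by 0.74 ± 0.17 (SE), limma adjusted p = 0.0149, and Rps29 by 0.72 ± 0.15 (SE), limma adjusted p = 0.00828. Leaving out any other library gave 0 members in either direction, where 1.17% to 2.04% of all tested genes passed. The count of members called without irradiation thus turned on 1 library.

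Ribosomal protein genes outside the symbol rule and related genes were counted from lists. Over all tested genes, 16.4% were lower and 14.3% higher in irradiated Bub1KO than in irradiated VC cells, and 1.71% and 2.31% without irradiation. With irradiation 23.9% were lower and 25.4% higher in Bub1KO, and 25.8% and 27.6% in VC cells. These shares belong beside every list count below. Of the 9 tested among 13 paralogues and further ribosomal proteins, 1 was lower in irradiated Bub1KO than in irradiated VC cells. This was Fau, whose product is a ubiquitin-like protein fused to a small subunit protein. It had 2845, 3190.3 and 2569 in irradiated Bub1KO against 5047, 6293 and 4258 in irradiated VC cells, a log2 change of -0.85 ± 0.11 (SE), limma adjusted p = 0.000165, and it rose with irradiation in VC cells by 1.08 ± 0.23 (SE), limma adjusted p = 0.00118. Rps3a1 fell with irradiation in both lines, at -0.45 ± 0.12 (SE), limma adjusted p = 0.00606 in Bub1KO and at -0.47 ± 0.12 (SE), limma adjusted p = 0.00388 in VC cells. Rpl7l1, a paralogue of Rpl7, likewise had changes of -0.46 and -0.63, and Rps27rt had -0.24 and, past the test, -0.34. Rack1, Rpl22l1, Rps27l and Rpl36al did not pass in any of the 5 comparisons. Of 307 ribosomal protein pseudogenes 115 were tested; 4 were lower and 2 higher in irradiated Bub1KO than in irradiated VC cells, 3 lower and 4 higher with irradiation in Bub1KO cells, and 15 lower and 2 higher in VC cells.

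Of 51 ribosome biogenesis genes, 30 were lower and 0 higher in irradiated Bub1KO than in irradiated VC cells, with a median change of -0.22 (log2), and 2 lower and 0 higher without irradiation. With irradiation 42 were lower and 0 higher in Bub1KO cells, and 36 lower and 1 higher in VC cells. The nucleolar methyltransferase Fbl had 998, 868 and 829.8 in irradiated Bub1KO against 1612, 1843 and 1632 in irradiated VC cells, a change of -0.92 ± 0.08 (SE), limma adjusted p = 5.21e-06. Rrp9 changed by -0.91 ± 0.10 (SE), limma adjusted p = 2.84e-05. Of 26 subunits and factors of RNA polymerases I and III, 7 were lower and 2 higher in irradiated Bub1KO, and 14 lower and 1 higher with irradiation in Bub1KO cells and 20 lower and 1 higher in VC cells; Polr1b had a change of -0.34 ± 0.06 (SE), limma adjusted p = 0.000626 between irradiated Bub1KO and VC cells. The percentages of all tested genes given above for each comparison apply here too.

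Of 20 translation factors and RNA-binding proteins of other TOP mRNAs, 3 were lower and 3 higher in irradiated Bub1KO than in irradiated VC cells. These are 15% in each direction, near the 16.4% and 14.3% of all tested genes. With irradiation 11 were lower and 1 higher in Bub1KO cells, and 14 lower and 1 higher in VC cells. The elongation factor Eef2 was the gene that rose in VC cells, by 0.69 ± 0.19 (SE), limma adjusted p = 0.00793, and it was lower in irradiated Bub1KO than in irradiated VC cells, at -0.35 ± 0.06 (SE), limma adjusted p = 0.00124. Hnrnpa1 changed by -0.99 ± 0.07 (SE), limma adjusted p = 1.01e-07 in Bub1KO and by -1.04 ± 0.07 (SE), limma adjusted p = 6.79e-08 in VC cells. Of 77 tested mitochondrial ribosomal protein genes, 9 (11.7%) were lower and 11 (14.3%) higher in irradiated Bub1KO than in irradiated VC cells. With irradiation 35 of these genes were lower and 1 higher in Bub1KO, and 38 lower and 5 higher in VC cells. Mrpl57 was the 1 of them with an interaction, -1.15 ± 0.22 (SE), limma adjusted p = 0.0342.

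Of 22 regulators of ribosomal protein synthesis, 6 (27.3%) were lower and 3 (13.6%) higher in irradiated Bub1KO than in irradiated VC cells. Of all tested genes 16.4% and 14.3% were. Without irradiation 1 regulator was lower and 2 higher. With irradiation 8 were lower and 7 higher in Bub1KO cells, and 8 lower and 8 higher in VC cells. The transcription factor Myc was lower in Bub1KO cells with and without irradiation. It had 838, 858 and 824 in irradiated Bub1KO against 1384, 1496 and 1380.4 in irradiated VC cells, a change of -0.76 ± 0.06 (SE), limma adjusted p = 4.18e-06, and changed by -0.50 ± 0.09 (SE), limma adjusted p = 0.0173, between unirradiated Bub1KO and VC cells. Ddit4 and Sesn2, inhibitors of mTOR signalling, were higher in unirradiated Bub1KO than in unirradiated VC cells, by 1.25 ± 0.11 (SE), limma adjusted p = 0.000517, and 1.10 ± 0.16 (SE), limma adjusted p = 0.00692. Their interactions were -0.96 ± 0.16 (SE), limma adjusted p = 0.0171, and -1.27 ± 0.19 (SE), limma adjusted p = 0.00549. Larp1 fell with irradiation in both lines, at -0.52 ± 0.07 (SE), limma adjusted p = 2.8e-05 in Bub1KO and at -0.46 ± 0.07 (SE), limma adjusted p = 7.5e-05 in VC cells. Its interaction was -0.06 ± 0.10 (SE), limma adjusted p = 0.869. Larp1 was also lower in irradiated Bub1KO than in irradiated VC cells, at -0.21 ± 0.06 (SE), limma adjusted p = 0.0212. Between unirradiated Bub1KO and VC cells it changed by -0.15 ± 0.08 (SE), limma adjusted p = 0.364. Of 15 genes of ribosome quality control and rescue, 7 (46.7%) were lower and 2 (13.3%) higher in irradiated Bub1KO cells. G3bp1, a core protein of stress granules, changed by -0.29 ± 0.05 (SE), limma adjusted p = 0.00109, and its partner Usp10 by -0.39 ± 0.06 (SE), limma adjusted p = 0.000614. Among 13 tested host genes of small nucleolar RNAs, 2 (15.4%) were lower and 1 (7.69%) higher in irradiated Bub1KO cells. Snhg8 had 393, 517 and 418 against 958, 1036 and 1003 in irradiated VC cells, a change of -1.18 ± 0.10 (SE), limma adjusted p = 2.88e-06, and its interaction was -1.32 ± 0.23 (SE), limma adjusted p = 0.0189.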

How the data were processed

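Per the submitters' processing notes, the genome was GRCm38.p6 (mm10) and the tools were HTSeq, SAMtools, STAR, cutadapt and Trim Galore; for versions, annotation release and the strand and multi-mapping settings of counting: not given in the sources used here. Libraries were made from ribosome-depleted total RNA with a stranded kit, per the labels' protocols. The authors deposited 2 tables of 55421 genes. Their 12 sample columns hold a signal, read counts divided by 1 size factor per library, as the deposited values show: whole reads were recovered for 100% of values in each library (tolerance 0.01 of a read), 19380726 to 33087366 per library. The deposited tables also hold the authors' log2 fold changes of VC over Bub1KO, test scores and p-values, per the file headers.

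limma-trend (limma 3.58.1, R 4.3.3) was run on log2(value + 1) of 14721 genes that reached 10 normalized counts in 3 or more of the 12 libraries, with Benjamini-Hochberg adjustment over all of them and a threshold of 0.05; fold changes on this scale understate those of low genes. Bub1KO and VC were compared on the 6 libraries of a treatment; irradiation within a line and the interaction used all 12, so comparisons share libraries. Intervals are 95% intervals from limma. Named are Rpl36, 12 genes with roles of their own, the 3 called members with the smallest p per comparison and direction, the 3 with the largest and smallest spread and level, up to 2 genes per direction and further list, and genes said to be chosen after their values were seen. Alternatives were other pseudocounts, no filter, TMM and total-read scaling, GC and length correction (loess, span 0.5), edgeR 4.0.16 and DESeq2 1.42.0 on the recovered reads, a replicate block, other libraries in the fit, and leaving out each library, which for the spread and the correlations with Rpl36 was added after seeing the data. Positions, length and GC content came from GENCODE M21, which matched 55240 identifiers. Length and GC content are those of a single transcript per gene, the longest where several ranked alike, and levels per kilobase rest on that length. The code was tested on simulated data. Some genes are not reported by name here. The members, lists and alternatives were chosen with earlier results of these data known.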

Additional observations from a re-analysis of the deposited data

Results flagged for a closer look

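Rps13, a small subunit gene, was the member whose change with irradiation differed between Bub1KO and VC cells by the interaction test. Its interaction was -0.97 on the log2 scale (limma adjusted p = 0.024), and in the 12 fits that left out 1 library it ranged from -1.07 to -0.85 with adjusted p from 0.00181 to 0.0783. All irradiated Bub1KO libraries were below all unirradiated ones, and all irradiated VC libraries were above all unirradiated ones.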

How the results depend on the processing

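For named members, 1 value under another setting and 3 with a library left out reversed; 821 and 516 kept their direction and side of the threshold, 15 and 19 lost the call and 7 and 14 gained it. With the first unirradiated Bub1KO library left out, Rpl41 in unirradiated Bub1KO over VC was 0.31 (-0.32 to 0.31 over all such fits), and the change with irradiation in Bub1KO was -0.93 for Rpl36 (-0.93 to 0.50) and -0.22 for Rplp0 (-0.22 to 0.23). With the GC trend removed, Rps19 changed by -0.22 with irradiation in Bub1KO.

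Leaving out each library gave 9 to 28 members higher in irradiated Bub1KO over VC, 0 to 13 higher in unirradiated Bub1KO over VC, 5 to 8 higher with irradiation in VC, 0 to 3 higher and 7 to 34 lower with irradiation in Bub1KO, and 0 to 1 higher and 0 to 17 lower by interaction. In irradiated cells, length correction gave 9 higher and 22 lower, and spread from all 12 libraries 1 higher and 6 lower. Of all tested genes 30.2% and 14.3% passed in these 2 settings, in either direction. With irradiation in Bub1KO, no filter gave 11 lower, and total-read scaling 1 higher and 7 lower. There 23.8% and 49.2% of all genes in the fit passed in either direction. By interaction, GC correction gave 1 higher and 3 lower, where 2.86% of all tested genes passed. The SD of Rpl36 in irradiated Bub1KO, 0.103, became 0.0295 with GC correction and 0.00602 with length correction. Leaving out each library of a group, added after seeing the data, gave an SD of Rpl36 of 0.0251 to 0.137 in irradiated Bub1KO, 0.183 to 0.851 in irradiated VC, 0.0700 to 2.02 in unirradiated Bub1KO and 0.221 to 1.17 in unirradiated VC cells, and a median SD of the members of 0.0522 to 0.105, 0.0646 to 0.111, 0.153 to 0.329 and 0.101 to 0.177. The cause of these changes was not tested, except that fewer libraries enter a fit that leaves one out.

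Same-numbered libraries of different groups had correlations of -0.193 to 0.0549 in their deviations, and differently numbered ones -0.148 to 0.152. No effect shared by number was seen. The correlations cannot tell whether same-numbered libraries were made together, and the labels do not say. With a replicate block the interaction passed for 0 members instead of 1. The counts were 17 higher and 15 lower in irradiated Bub1KO over VC, and 7 higher and 34 lower with irradiation in VC. They were 18 lower with irradiation in Bub1KO, and 0 between unirradiated Bub1KO and VC. In the same order 0.319%, 28.3%, 51.5%, 47.3% and 2.12% of all tested genes passed. Depth was no less than 19380726 reads, and with 3 libraries a group the spread between libraries limits what could be called.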
